A study of Rattus norvegicus with 12 samples.

Results

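To examine the astrocyte side of oligodendrocyte precursor cell (OPC) cultures, 10 astrocyte marker genes (Gfap, Aqp4, Clu, Slc1a2, Slc1a3, S100b, Sparcl1, Aldoc, Sox9 and Gja1) were read library by library and compared between mild hypoxia and standard culture. They were picked by symbol from a table of 30562 rat genes, and all 10 were among the 8938 genes with more than 10 CPM (read counts normalised to library size) in at least 1 library. The bulk RNA-seq libraries came from wild-type rat brain OPCs, which the study's methods describe as isolated from neonatal Sprague-Dawley cortex. Microglia were shaken off and remaining astrocytes and microglia were then removed by adhesion to uncoated dishes. Mild-hypo-OPCs (6 libraries) were kept at an FiO2 of 5%, and standard OPCs (6 libraries) in ordinary culture. The labels give an exposure of 6 hours whereas the methods give days. The labels do not say that the 6 libraries of a group were separate cultures, and the study names fewer biological replicates per group than there are libraries, so p-values measure only the spread between these libraries, which may be technical.

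Astrocytes and OPCs both arise from neural progenitors, and several genes used as astrocyte markers are shared with progenitors or with the oligodendrocyte lineage. Mature astrocytes build intermediate filaments from GFAP, take up glutamate through the transporters encoded by Slc1a2 and Slc1a3, pass water through aquaporin-4 at their endfeet and couple through connexin 43, the product of Gja1. Sox9 is a transcription factor that directs progenitors to the glial lineage, and S100b, a calcium-binding protein, is also made by cells of the oligodendrocyte lineage.

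Total counts per library were 4111669 to 9022324 in mild-hypo-OPCs against 1356079 to 2797513 in standard OPCs, and these ranges did not overlap. Ribosomal RNA took 17.4 to 25.2% of counts in mild-hypo-OPCs against 23.9 to 38.4% in standard OPCs. Depth and condition therefore cannot be told apart, and values below are CPM after scaling by trimmed mean of M-values (TMM). A count of 0, taken as fewer than 3 counts, allowed up to 0.333 to 0.73 CPM per library in mild-hypo-OPCs against up to 1.07 to 2.21 CPM in standard OPCs, for counting error only.

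The marker genes did not move as a block. Aqp4, Clu and Slc1a3 were higher in mild-hypo-OPCs, S100b was lower, and the other 6 did not pass the threshold (edgeR's quasi-likelihood test, Benjamini-Hochberg adjusted p under 0.05 over all 8938 genes). The 3 higher genes stood against 7.0% of all tested genes called higher, and the 1 lower gene against 17.0% called lower. For the same 4 genes the libraries of the 2 groups did not overlap, 3 above and 1 below, whereas 2.94% of all tested genes had every mild-hypo-OPC library above and 5.4% had every one below. The median log2 fold change of the 10 genes was 0.10, with 6 of 10 positive, against -0.003 over all tested genes. Each of the 10 genes had counts in all 12 libraries. Their summed level was 989.2 to 1131 CPM (median 1060) in mild-hypo-OPCs against 934.8 to 1050 CPM (median 1005) in standard OPCs, so the sums overlapped. In such bulk libraries, fewer cells of a type and less RNA per cell cannot be told apart.

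**Figure D1:**
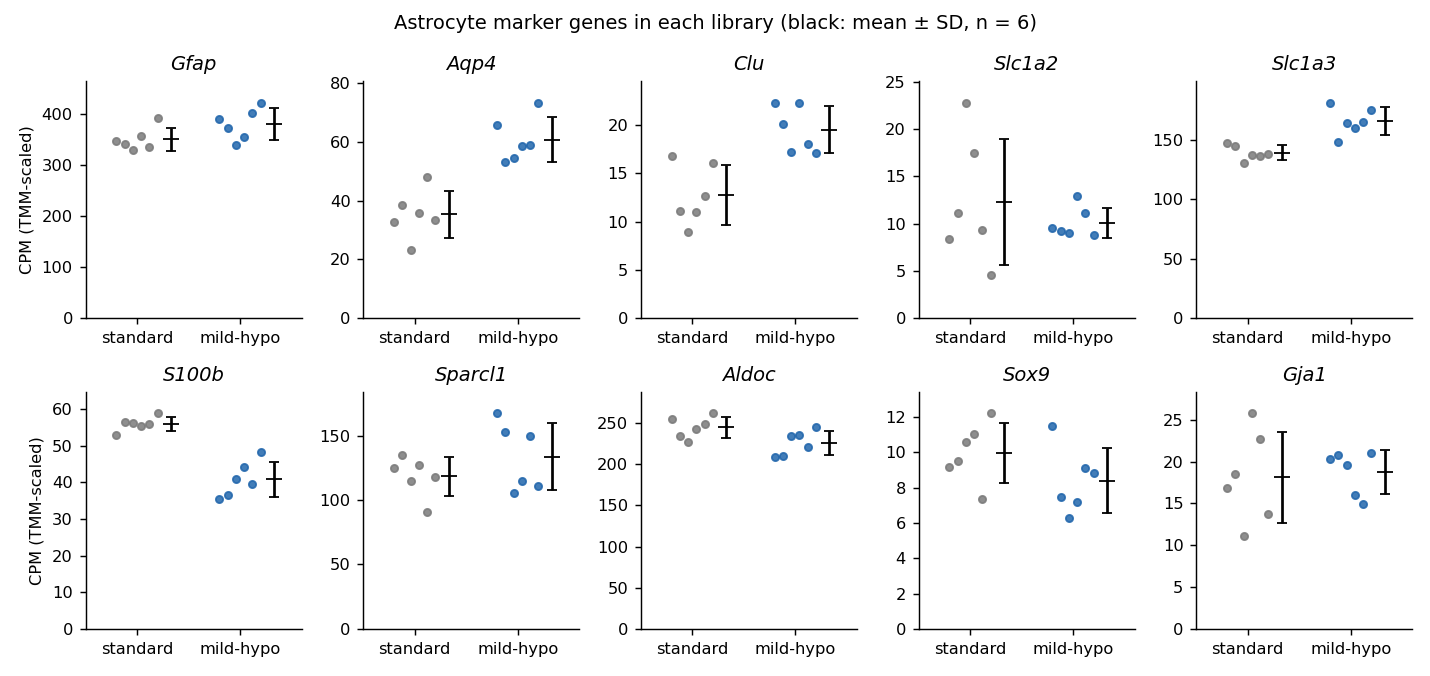
Normalised level in CPM (vertical axes, each from 0) of the 10 astrocyte marker genes in the 6 mild-hypo-OPC and 6 standard OPC libraries. Points are libraries and bars are the mean ± SD. Aqp4, Clu and Slc1a3 lie higher in every mild-hypo-OPC library, S100b lies lower in every one, and the other panels overlap.

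Sequence upstream of 4 of these genes is shown for reference: 3 of the 4 called genes (Aqp4, Slc1a3 and S100b) and Aldoc, a hypoxia-responsive glycolytic gene. The sequences are from RefSeq (GRCr8), run 5′ to 3′ towards the gene start, and are limited to bases outside the annotated gene. Capitals mark matches on either strand to ACGTG, the core of the hypoxia response element, or to TTGGC, the core bound by nuclear factor I.
Aqp4 (chr18:6799035-6799092, minus strand, 58 bases): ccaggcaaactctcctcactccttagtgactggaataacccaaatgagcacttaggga
Slc1a3 (chr2:59557809-59558058, minus strand, 250 bases): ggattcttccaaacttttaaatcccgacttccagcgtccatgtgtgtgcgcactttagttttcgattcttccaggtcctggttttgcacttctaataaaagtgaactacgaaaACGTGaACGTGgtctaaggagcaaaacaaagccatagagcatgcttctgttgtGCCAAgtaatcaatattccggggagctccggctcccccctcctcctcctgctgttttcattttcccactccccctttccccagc
S100b (chr20:12381160-12381331, minus strand, 172 bases): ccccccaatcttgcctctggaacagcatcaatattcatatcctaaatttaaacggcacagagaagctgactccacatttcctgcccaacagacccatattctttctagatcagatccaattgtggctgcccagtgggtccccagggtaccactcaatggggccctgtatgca
Aldoc (chr10:63715294-63715543, plus strand, 250 bases): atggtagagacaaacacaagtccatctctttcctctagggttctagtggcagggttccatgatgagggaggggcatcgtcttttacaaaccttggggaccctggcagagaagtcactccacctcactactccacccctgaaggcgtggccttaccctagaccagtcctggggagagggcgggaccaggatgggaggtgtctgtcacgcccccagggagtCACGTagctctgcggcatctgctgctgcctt
The window of Slc1a3 held 2 ACGTG matches and 1 TTGGC match, that of Aldoc 1 ACGTG match, and the shorter windows printed for Aqp4 and S100b held no match. Over the full 250 bases before the start, ACGTG occurred in 4 of the 8 marker genes with an entry (Slc1a2, Slc1a3, Aldoc and Gja1) and in 16.9% of 27455 rat promoters. TTGGC occurred in 3 of 8 (Slc1a3, S100b and Sparcl1) and in 40.3% of promoters, and the STAT-type site TTCNNNGAA in 0 of 8 and in 7.53%. The 3 motifs were searched separately on both strands. These matches describe letters in a window and are not evidence of binding.

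Among the membrane channels, Aqp4 (ENSRNOG00000016043), the water channel of astrocyte endfeet, showed the largest difference of the 10 genes. Its level was 53.3, 58.8 and 73.4 CPM (lowest, median and highest) in mild-hypo-OPCs and 23.4, 34.7 and 48.0 CPM in standard OPCs. Every mild-hypo-OPC library lay above every standard OPC library. Mean levels were 60.8 ± 7.56 and 35.4 ± 8.04 CPM (SD, n = 6 each), a 1.73-fold difference (log2 fold change 0.79, SE 0.13, 95% interval 0.52 to 1.06, adjusted p = 0.000287 by edgeR's quasi-likelihood test). These values rest on 286 to 630 counts per library in mild-hypo-OPCs against 39 to 86 in standard OPCs.

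Gja1 (ENSRNOG00000000805), which encodes the gap junction protein connexin 43, had 14.9, 19.96 and 21.0 CPM in mild-hypo-OPCs and 11.1, 17.6 and 25.8 CPM in standard OPCs. The groups overlapped, and the standard OPC libraries spread more widely than the others. The log2 fold change was 0.09 (95% interval -0.25 to 0.43, edgeR adjusted p = 0.73), an interval that leaves room for a difference in either direction.

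The glutamate transporters differed from each other. Slc1a3 (ENSRNOG00000016163), which encodes GLAST and is also found in progenitors, had 148.5, 164 and 181 CPM in mild-hypo-OPCs and 130, 138 and 147.6 CPM in standard OPCs. The groups did not overlap but nearly touched. The difference was 1.19-fold (log2 fold change 0.25, SE 0.07, 95% interval 0.10 to 0.40, edgeR adjusted p = 0.0167). Slc1a2 (ENSRNOG00000005479), which encodes GLT-1, had 8.85, 9.36 and 12.9 CPM in mild-hypo-OPCs and 4.58, 10.2 and 22.8 CPM in standard OPCs. The standard OPC libraries lay on both sides of the mild-hypo-OPC libraries, with 6 to 41 counts each. Its log2 fold change was -0.27 (95% interval -0.78 to 0.24, edgeR adjusted p = 0.45).

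Among the secreted and matricellular products, Clu (ENSRNOG00000016460), which encodes the chaperone clusterin, had 17.1, 19.1 and 22.3 CPM in mild-hypo-OPCs and 8.90, 11.9 and 16.8 CPM in standard OPCs. The groups did not overlap. The difference was 1.51-fold (log2 fold change 0.60, SE 0.15, 95% interval 0.27 to 0.92, edgeR adjusted p = 0.00874), with 12 to 44 counts per library in standard OPCs. After all libraries were thinned to the smallest total, the log2 fold change of Clu was 0.56 and the edgeR adjusted p was 0.0534. Sparcl1 (ENSRNOG00000015093), which encodes the synapse-promoting protein hevin, had 105.8, 132.5 and 167 CPM in mild-hypo-OPCs and 90.6, 121 and 135 CPM in standard OPCs. The groups overlapped, and the log2 fold change was 0.18 (95% interval -0.08 to 0.43, edgeR adjusted p = 0.312).

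S100b (ENSRNOG00000001295) moved the other way. It had 35.4, 40.2 and 48.3 CPM in mild-hypo-OPCs and 52.8, 56.1 and 58.8 CPM in standard OPCs, with every mild-hypo-OPC library below every standard OPC library. The level was 1.37-fold lower in mild-hypo-OPCs (log2 fold change -0.46, SE 0.09, 95% interval -0.65 to -0.26, edgeR adjusted p = 0.00145). Aldoc (ENSRNOG00000011452), the brain aldolase of glycolysis, had 209, 227 and 245 CPM in mild-hypo-OPCs and 227, 246 and 262 CPM in standard OPCs. No mild-hypo-OPC library was above the standard OPC median, but the ranges overlapped, and Aldoc did not pass the threshold (log2 fold change -0.12, 95% interval -0.27 to 0.03, edgeR adjusted p = 0.25).

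Gfap (ENSRNOG00000002919), the intermediate filament gene most used to identify astrocytes, was close to even between the groups. It had 338, 382 and 422 CPM in mild-hypo-OPCs and 330, 344 and 393 CPM in standard OPCs, and 2 mild-hypo-OPC libraries exceeded the highest standard OPC library. The log2 fold change was 0.12 (SE 0.08, 95% interval -0.04 to 0.28, edgeR adjusted p = 0.283). Sox9 (ENSRNOG00000002607) had 6.26, 8.16 and 11.5 CPM in mild-hypo-OPCs and 7.33, 10.04 and 12.2 CPM in standard OPCs. Its level before TMM scaling, on which the filter was set, exceeded 10 CPM in 3 mild-hypo-OPC libraries and 1 standard OPC library. The groups overlapped, and the log2 fold change was -0.20 (95% interval -0.61 to 0.20, edgeR adjusted p = 0.482).

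**Figure D2:**
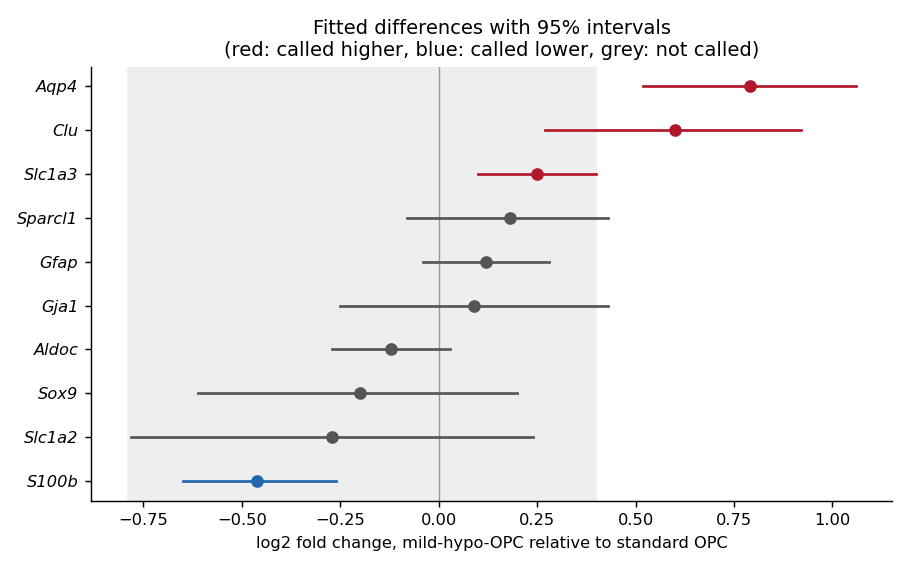
Log2 fold change of each astrocyte marker gene (mild-hypo-OPC minus standard OPC, horizontal axis) with its 95% interval from edgeR. The grey band spans the 5th to the 95th percentile of all 8938 tested genes. Aqp4 at 0.79 and Clu at 0.60 lie above the band, whereas S100b at -0.46 and the other genes lie within it.

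To compare the genes within a library, counts were also expressed per 100 Gfap counts in the same library, a quantity that needs no scaling between libraries and was chosen after the values were seen. Aqp4 stood at 14.3, 16.3 and 17.4 (lowest, median and highest) per 100 Gfap counts in mild-hypo-OPCs and at 7.07, 9.77 and 14.3 in standard OPCs. In 5 of 6 mild-hypo-OPC libraries the ratio exceeded the highest standard OPC value. S100b stood at 9.05, 10.6 and 12.4 in mild-hypo-OPCs and at 15.0, 16 and 17.0 in standard OPCs, with no overlap. The medians of the 2 groups had a ratio (mild-hypo-OPC to standard OPC) of 1.67 for Aqp4, 1.49 for Clu, 1.08 for Slc1a3, 0.851 for Slc1a2, 0.832 for Aldoc, 0.701 for Sox9 and 0.664 for S100b. For Sparcl1 and Gja1 it was 0.993 and 0.991. These ratios are given as a description, with no test.

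**Figure D3:**
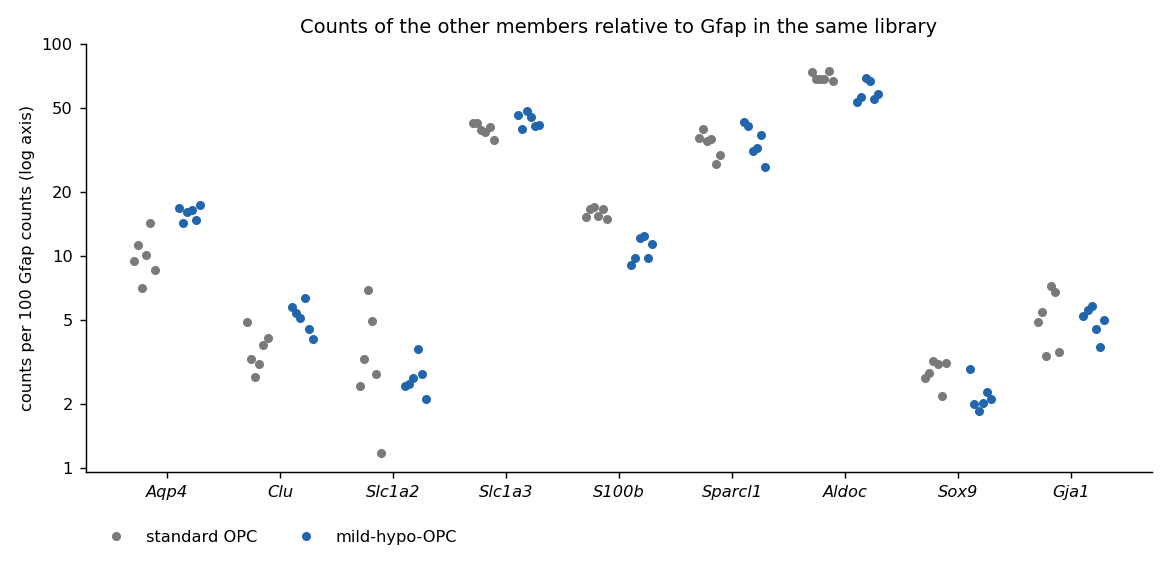
Counts of each other astrocyte marker gene per 100 Gfap counts in the same library (log axis), for 6 mild-hypo-OPC and 6 standard OPC libraries. Aqp4 has medians of 16.3 and 9.77, and S100b, whose libraries do not overlap, has medians of 10.6 and 16.

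Whether the genes moved together was also asked within each condition, over the 45 pairs of the 10 genes in 6 libraries. In mild-hypo-OPCs 24 of 45 pairs had a positive Pearson's r of log2 CPM, with a median r of 0.08. In standard OPCs 25 of 45 pairs were positive, with a median r of 0.04. Over all pairs of tested genes, 50% and 49.8% were positive and the median r was 0.0 in both groups. The lowest and highest r of a single pair were -0.93 and 0.97 in mild-hypo-OPCs. In standard OPCs they were -0.88 and 0.94. By two-sided exact permutation tests adjusted over the 90 relations, 0 pairs passed 0.05 with either Pearson's r or Spearman's rho. Unadjusted, 5 and 3 pairs (mild-hypo-OPCs and standard OPCs) had p under 0.05 by Pearson's r and 2 and 3 by Spearman's rho. The smallest p that 6 libraries allow by Pearson's r is 0.00139, so that a lone pair at this limit has an adjusted p of 0.125. By Spearman's rho the smallest p is 0.00278, and a lone pair there has an adjusted p of 0.25.

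The pair with the highest r was S100b and Aldoc in mild-hypo-OPCs (r = 0.97, exact permutation p = 0.00139, adjusted p = 0.125, rho = 1, exact permutation p = 0.00278, adjusted p = 0.25). Without the 2 libraries farthest from the median of S100b, r was 0.94. In standard OPCs the same pair had r = 0.04 (exact permutation p = 0.96, rho = -0.03, exact permutation p = 1.0). Clu and Aldoc had r = 0.94 in standard OPCs (exact permutation p = 0.0111, adjusted p = 0.5, rho = 0.89, exact permutation p = 0.0333, and r = 0.91 without the 2 farthest libraries) but r = -0.49 in mild-hypo-OPCs (exact permutation p = 0.289, rho = -0.43, exact permutation p = 0.419). The difference between the groups was not tested. Pairs with r above 0.5 in both groups numbered 2, Gfap with Sox9 and Sparcl1 with Sox9. Gfap and Sox9 had r = 0.75 in mild-hypo-OPCs (exact permutation p = 0.0931, rho = 0.77, exact permutation p = 0.103) and r = 0.67 in standard OPCs (exact permutation p = 0.156, rho = 0.60, exact permutation p = 0.242). Without the 2 libraries farthest from the median of Gfap these were 0.75 and 0.91.

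**Figure D4:**
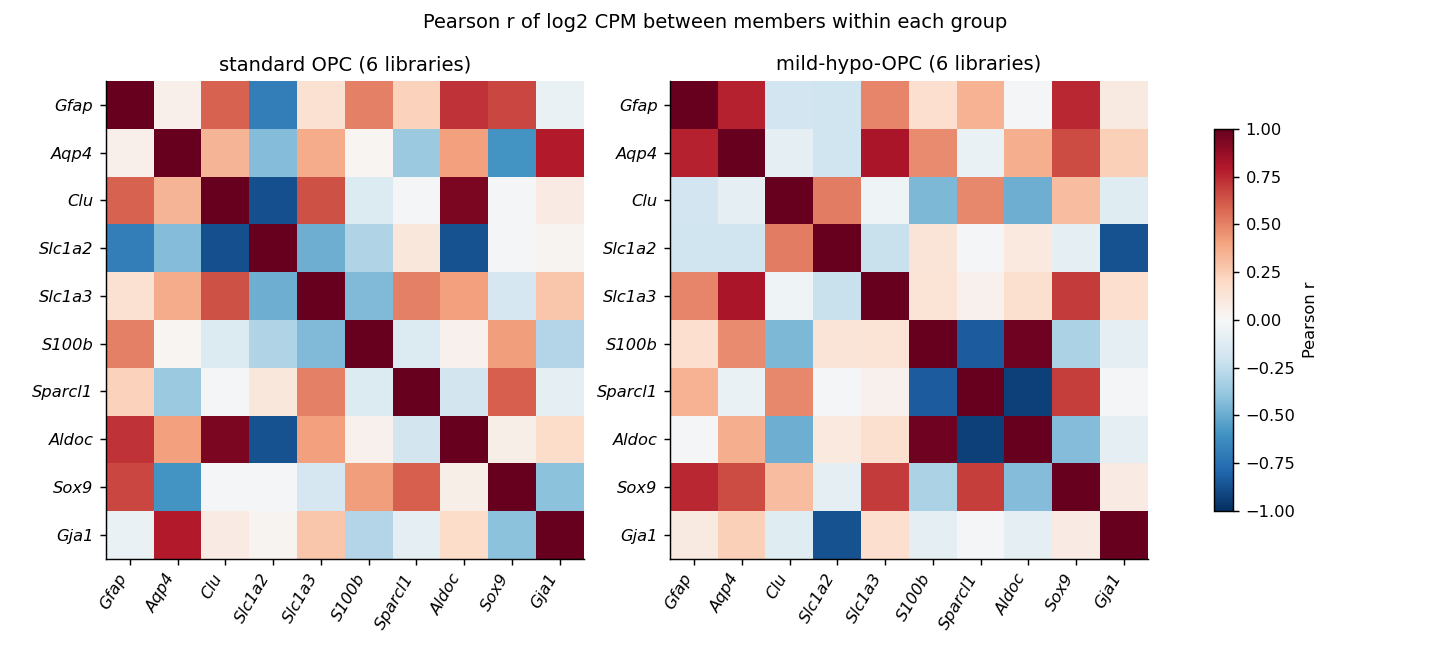
Pearson's r of log2 CPM for each pair of astrocyte marker genes over the 6 libraries of mild-hypo-OPCs and, separately, the 6 of standard OPCs (colour scale from -1 to 1). Positive and negative cells are mixed in both panels, with medians of 0.08 and 0.04.

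A wider list of 35 further astrocyte genes was read in the same fit, of which 20 could be tested. Of these, 4 rose and 1 fell, 15 did not pass, and the median log2 fold change was 0.15. Over all tested genes, 7.0% were called higher and 17.0% lower, with a median of -0.003. Glul, which encodes the glutamine synthetase of the astrocyte glutamate cycle, rose by 0.38 (edgeR adjusted p = 0.00653), and Vim, the intermediate filament gene vimentin, by 0.42 (edgeR adjusted p = 0.00123), both without overlap of libraries. The adhesion gene Hepacam was higher by 0.38 (edgeR adjusted p = 0.0159). Cst3, which encodes cystatin C, was the lower gene (log2 fold change -0.93, edgeR adjusted p = 0.000243). Its groups overlapped, with 567 to 796 CPM in mild-hypo-OPCs and 777 to 1600 CPM in standard OPCs. Within standard OPCs it was 777 CPM in replicate 1, the deepest library, and 1570 CPM in replicate 4, the shallowest. Several genes regarded as specific to mature astrocytes were near the detection limit in both groups. Aldh1l1 had 4 to 11 counts per library in mild-hypo-OPCs against 0 to 5 in standard OPCs, and Gjb6, which encodes connexin 30, had 0 to 2 and 0 to 1. Scaled for depth, the means were 1.07 against 1.11 CPM for Aldh1l1 and 0.061 against 0.088 CPM for Gjb6. Slc7a10 had 0 to 2 counts in both (means 0.154 and 0.269 CPM). Other astrocyte genes of the list lay well above this limit and were not called. Mlc1 had 20.1 to 28.1 CPM in mild-hypo-OPCs against 15.6 to 28.7 CPM in standard OPCs (edgeR adjusted p = 0.485). Fgfr3 had 16.8 to 21.1 against 10.7 to 25.0 CPM (edgeR adjusted p = 0.952).

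Genes linked to reactive astrocytes were mostly too low for the filter, with 7 of 22 tested. For this list and the next ones, the shares over all tested genes were again 7.0% higher and 17.0% lower. Tnc, an extracellular matrix gene, rose by 0.75 (edgeR adjusted p = 0.00987), S100a10 had a log2 fold change of -0.58 (edgeR adjusted p = 0.0228), and the median was 0.05. For both genes the libraries of the groups overlapped. S100a10 had 27.5 to 40.6 CPM in mild-hypo-OPCs and 27.5 to 70.2 CPM in standard OPCs, lowest there in replicate 1, the deepest library. Serpina3n had 0 counts in every library, and Lcn2 had at most 3. The complement gene C3, named after its values were seen, had 5 to 17 counts per library in mild-hypo-OPCs against 0 to 2 in standard OPCs. These were 0.922 to 2.66 CPM against 0 to 0.92 CPM. Fewer than 3 counts allowed up to 1.07 to 2.21 CPM in standard OPCs before TMM scaling, and more after it. C3 was too low for the filter, and without the filter its edgeR adjusted p was 0.00343. Among other listed genes under the filter, S100a4 and Dcn were then lower and Pdgfrb higher (edgeR adjusted p = 0.00834, 0.0268 and 0.0312), all on few counts. Of 14 transcription factors of glial fate, 9 were tested, and Zbtb20 alone passed, lower in mild-hypo-OPCs (log2 fold change -1.22, edgeR adjusted p = 0.00115) with no overlap. Zbtb20 had 5.94 to 8.17 CPM in mild-hypo-OPCs and 10.7 to 31.7 CPM in standard OPCs. It reached the filter only through standard OPC libraries. Among relatives of the marker genes, 11 of 29 were tested, with 2 higher and 1 lower. The gap junction gene Gjc3 rose by 0.53 (edgeR adjusted p = 0.0013, no overlap) and the neurofilament-class gene Ina by 0.28 (edgeR adjusted p = 0.0164). The calcium-binding S100a16 was lower by a log2 fold change of -0.58 (edgeR adjusted p = 0.0244). S100a16 too reached the filter only through standard OPC libraries.

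Markers of other cell types moved as well, and their part in the results above was not tested. Over all tested genes, 7.0% were called higher and 17.0% lower. The OPC list had 9 genes tested, of which 0 passed the edgeR threshold (1 at unadjusted p under 0.05), with summed levels of 2884 to 3250 CPM in mild-hypo-OPCs against 2595 to 3260 CPM in standard OPCs. Of 10 oligodendrocyte genes 6 rose, among them Cldn11 by 0.54 and Mag by 0.47, and the sums did not overlap (16280 to 17100 against 11310 to 15890 CPM). Mbp, Mog, Mobp and Bcas1 did not pass, at 0.29, 0.15, 0.16 and -0.03. Mbp was the largest part of these sums, with means of 7132 and 5851 CPM. Of 10 microglial genes 5 were tested, with Csf1r at 0.61 and C1qb at 0.76 higher and Tyrobp at -0.69 lower, and sums of 53.51 to 76.02 against 23.01 to 56.51 CPM. Tyrobp reached the filter only through standard OPC libraries. Among 10 neuronal genes 5 were tested, with Tubb3 at 0.72 and Dlx1 at 0.82 higher, and sums of 151.1 to 169.8 against 91.97 to 127.3 CPM. Tubb3 made up most of these sums (means 98.9 against 59.4 CPM). Dlx1 reached the filter only through mild-hypo-OPC libraries. Mesenchymal genes summed to 36.76 to 55.86 against 24.47 to 35.12 CPM, with Tagln at 0.53 the 1 called gene of 2 tested and Lum at 0 in every library. Nearly all of these sums came from Tagln (means 30.1 against 21.1 CPM) and Fn1 (11.7 against 7.34 CPM, not called). Endothelial genes reached 7 counts and ependymal genes 4 in the library where they were highest, too few to be tested.

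Log2 fold changes also went with the genomic length of the gene over the whole table. The median was -0.32 in genes spanning up to 5 kb, where 42.2% were lower and 3.37% higher, and 0.08 in genes of 50 to 100 kb, where 5.97% were lower and 9.49% higher. S100b, at 8.81 kb, lay in the 5 to 10 kb class (median -0.14, 30.1% lower), together with Gfap and Sox9, and Aldoc in the shortest class. Cst3 of the wider astrocyte list, at 4056 bp, was also in the shortest class. Aqp4, at 16.6 kb, lay in the 10 to 20 kb class (median -0.03, 5.93% higher), Clu in the 20 to 50 kb class (median 0.05, 8.58% higher) and Slc1a3 in the 50 to 100 kb class.

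**Figure D5:**
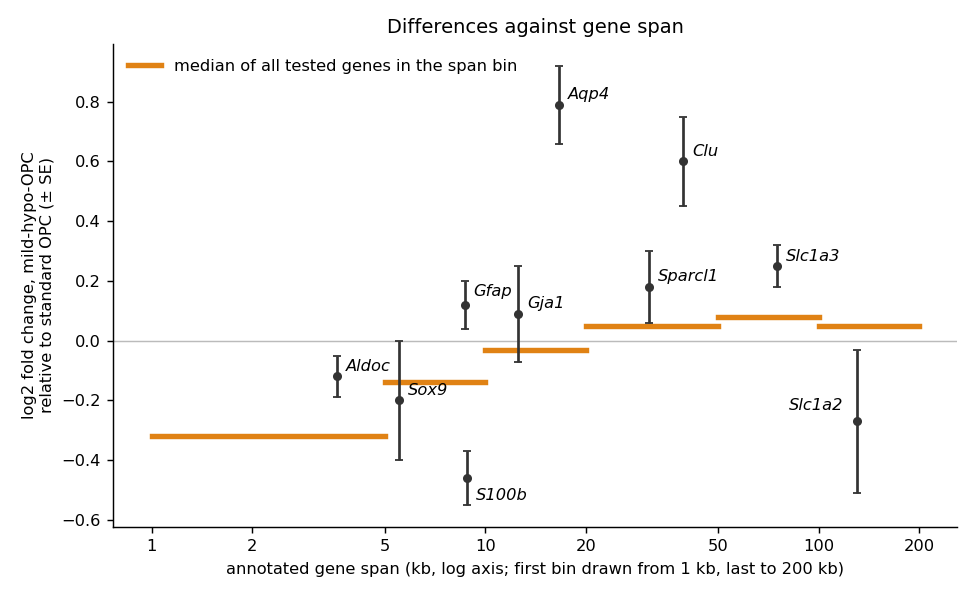
Log2 fold change ± SE of each astrocyte marker gene (mild-hypo-OPC minus standard OPC) against the genomic span of the gene in kb (log axis). Orange marks give the median of all tested genes of the same span class, from -0.32 in the shortest to 0.08. Aqp4 lies above its class median by the widest margin.

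The direction of several genes rested on how libraries were scaled. With library size in place of TMM, the median log2 fold change of all tested genes moved to 0.43, 61.7% of them were called higher and 4.53% lower by edgeR, and the marker genes split into 7 higher and 0 lower, S100b having a log2 fold change of -0.02. Relative to that median of all genes, Aqp4 stood at 0.79 and S100b at -0.45 with library size only. With log2 total count as a covariate in edgeR, 0.481% of tested genes were called in either direction and 0 of the 10 marker genes, of which 1 (Aqp4) had an unadjusted p under 0.05. The log2 fold change of Aqp4 was then 0.81 (SE 0.26), that of Clu 0.36 (SE 0.30), that of Slc1a3 0.07 (SE 0.15) and that of S100b -0.17 (SE 0.19), while the median of all tested genes was -0.01.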

How the data were processed

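Bulk RNA-seq libraries of rat OPCs were grouped by the treatment in their labels (6 mild-hypo-OPC, 6 standard OPC). The authors trimmed reads with Trimmomatic 0.36, checked them with FastQC 0.11.9, aligned them to mRatBN7.2 with STAR 2.7.9a and used RSEM 1.3.3 for gene quantification. The deposited table gives unnormalized counts, as whole numbers, with a row per Ensembl gene and 1 column per library. How RSEM's estimates became whole numbers is not given in the sources used here, and genes with near-identical copies may share reads.

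The filter required a CPM over 10, before TMM scaling, in 1 or more libraries and left 8938 of 30562 genes. edgeR 4.0.16 in R 4.3.3 was run with TMM factors and its quasi-likelihood test, fitting condition alone, with p-values adjusted after Benjamini-Hochberg (threshold 0.05) over all genes kept. limma 3.58.1 (voom) and DESeq2 1.42.0 were alternatives, beside other scalings and filters, thinning, a depth covariate, a replicate block and leaving out each library. The methods were tested on simulated counts. Pairs of libraries within a group differed beyond sampling noise (chi-square per degree of freedom at least 3.22), so none was merged with another as the same library deposited again. Libraries prepared from a shared culture could differ as much.

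The 10 marker genes, the other gene lists and the rule for named genes (the 10 markers, called genes of the astrocyte lists, defining or called markers of other cell types, and the 5 genes most like Gfap) were chosen with earlier results of these data known. Correlations used log2 CPM with a prior count of 2. Gene spans (RefSeq, GRCr8, matched by symbol) were found for 95.55% of genes kept. S100a13, Lhfpl3, Cldn5 and Foxj1 were not analysed here. The values of 1 called gene of the wider astrocyte list are not reported here. Transcript lengths were not used, so ratios to Gfap and parts of summed CPM describe counts and not relative amounts of transcript. Figures were drawn with matplotlib 3.10.9.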

Additional observations from a re-analysis of the deposited data

How the results depend on the processing

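Aqp4, Clu, Slc1a3 and S100b kept their calls under limma-voom, DESeq2, other filters, upper-quartile scaling and each of the 12 fits without 1 library. In the fits without 1 library, log2 fold changes spanned 0.69 to 0.89, 0.50 to 0.73, 0.23 to 0.31 and -0.48 to -0.38. Over the 230 recomputed values of single marker genes, 214 kept direction and side of the threshold. Each gene had 12 fits without 1 library, which share nearly all libraries, and 11 other settings. For genes not called, keeping side means staying uncalled. With library size only, edgeR called 5515 genes higher and 405 lower (626 and 1520 with TMM), 7 marker genes higher and 0 lower (0 lower also at unadjusted p under 0.05), and their median was 0.54. Slc1a2, Aldoc and Sox9 then turned to 0.17, 0.32 and 0.22. Once log2 total count entered the model, edgeR called 0 genes higher and 43 lower (217 and 488 at unadjusted p under 0.05) and 0 marker genes higher and 0 lower, Sparcl1 at -0.26 and Aldoc at 0.02 having changed sign. Thinning gave 395 genes called higher and upper-quartile scaling 1136. Without 1 library, calls ranged from 436 to 823 higher and 1165 to 1664 lower, and Slc1a2 ranged from -0.41 to 0.03 and Gja1 from -0.02 to 0.18, both changing sign without standard OPC replicate 3. The median r between pairs without 1 library was 0.07 to 0.16 (mild-hypo-OPCs) and -0.14 to 0.14 (standard OPCs). It was -0.08 in mild-hypo-OPCs after thinning and 0.25 in standard OPCs with library size only. The causes were not tested. Replicate numbers did not pair the libraries (same-number correlations -0.28 to 0.30, 1 of 6 best with its own number), and with a replicate block edgeR called 572 genes higher and 1471 lower and the same 4 marker genes (S100b at -0.47). Counts of 6 to 44 per standard OPC library limited Slc1a2, Clu, Sox9 and Gja1.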

Other observations

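The tested genes whose level followed Gfap most closely, by Pearson's r of log2 CPM centred on each group over 12 libraries, were the zinc finger gene Zfp623 (r = 0.87), Cfdp1 (0.86), Ergic1 (0.80), Plat, the tissue plasminogen activator (0.80), and the phospholipase gene Plcg1 (0.79). Among the other astrocyte marker genes Sox9 came closest (r = 0.72, position 19 of 8937 genes), followed by Slc1a3 (0.38, position 869), and Slc1a2 had the lowest r (-0.45). The libraries differ in depth, and these values are a description with no test.

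The library labelled standard OPC replicate 3 was the lowest of its group for 6 of the 10 marker genes.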
